A study of Mus musculus with 12 samples.

Results

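Liver gene expression was compared between Tert-/- and wild-type mice 24 h after both had received the ethylating mutagen N-ethyl-N-nitrosourea (ENU). Genes were kept when they reached at least 1 FPKM (read fragments scaled to transcript length and library size) in at least 3 of the 6 libraries, which left 11831 of the 49584 genes in the table. The 3 wild-type libraries came from age-matched mice of the strain C57BL/6/129/SvJ that were given 150 µg ENU per g body weight into the peritoneal cavity. The 3 Tert-/- libraries came from mice of the same strain, dose and time that the labels call G1, the usual term for a first generation of telomerase knockouts. A further 3 wild-type and 3 G1 Tert-/- liver libraries after saline complete the 12 libraries, and they share no library with the ENU comparison. All are bulk RNA of whole liver. The labels do not say that each library came from a separate mouse, so p-values measure the spread between these libraries, which may be technical.

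Tert encodes the reverse transcriptase subunit of telomerase, which adds telomeric repeats to chromosome ends. In most adult tissues its RNA is scarce, and mice that lack it still have long telomeres in the first generation. ENU transfers ethyl groups to oxygen and nitrogen atoms of DNA bases, and the resulting lesions activate p53, which induces genes of cell cycle arrest, repair and apoptosis. Immediate early genes, such as Fos, Junb and Btg2, encode short-lived transcription factors and regulators whose transcription follows growth, stress and damage signals within minutes to hours.

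The ENU libraries held 30053822 to 43676962 reads counted to genes, with 19576 to 20310 genes detected in each. Hepatocyte genes led all 6 libraries, and Alb, which encodes serum albumin, stood at 26580 to 45050 FPKM. Every ENU library carried transcripts of the Y-linked gene Kdm5d, at 6.00 to 7.73 FPKM. Pearson correlations of log2 values across genes between pairs of ENU libraries lay between 0.9776 and 0.9904. One saline library, Tert-/- replicate 2, stood apart: it had 17486 genes detected against 19637 and 19909 in the other Tert-/- saline libraries. Saline medians of gene lists are therefore given with and without it, while overlap of libraries in saline refers to all 6 saline libraries.

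The targeted gene was checked first. Tert (chromosome 13, 73627001 to 73649041, mm10) measured 6.23, 5.69 and 4.70 FPKM in the wild-type ENU libraries and 1.62, 1.23 and 1.11 FPKM in the Tert-/- ENU libraries, in the order of replicates 1, 2 and 3, which is kept throughout. All 3 Tert-/- values lay below all 3 wild-type values, in the direction the labels give. Behind them stood 641, 797 and 704 reads in wild type and 201, 170 and 165 reads in Tert-/-, so the gene was not at 0 in the knockout, and values per gene do not show which exons those reads came from. The difference in log2(FPKM + 1), the scale of every log2 difference given here, was -1.49 ± 0.14 (SE). Its adjusted p from limma was 0.061, just outside the threshold of 0.05. It was inside that threshold when the libraries were rescaled by median ratios, with an adjusted p of 0.0492, when limma-voom was run on reads recovered from the FPKM values, with 0.0298, and when wild-type ENU replicate 3 was left out, with 0.0233.

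Across all genes kept, 1 gene passed the threshold after ENU, which is 0.00845% of those tested, and it fell: Gadd45g. No gene rose by limma at an adjusted p under 0.05, while 383 genes (3.24%) were higher and 856 genes (7.24%) lower in Tert-/- at an unadjusted p under 0.05. limma-voom on recovered reads called 2 genes higher and 3 lower. In 1894 genes (16%) the libraries of the 2 genotypes did not overlap, with 666 (5.63%) higher and 1228 (10.4%) lower in Tert-/-. Most differences were small: 94.5% of genes lay within 0.5 of 0 on the log2 scale, the median was -0.029, and the median SE was 0.129. A further 39 genes had estimates above 1 and 41 had estimates below -1.

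**Figure D1:**
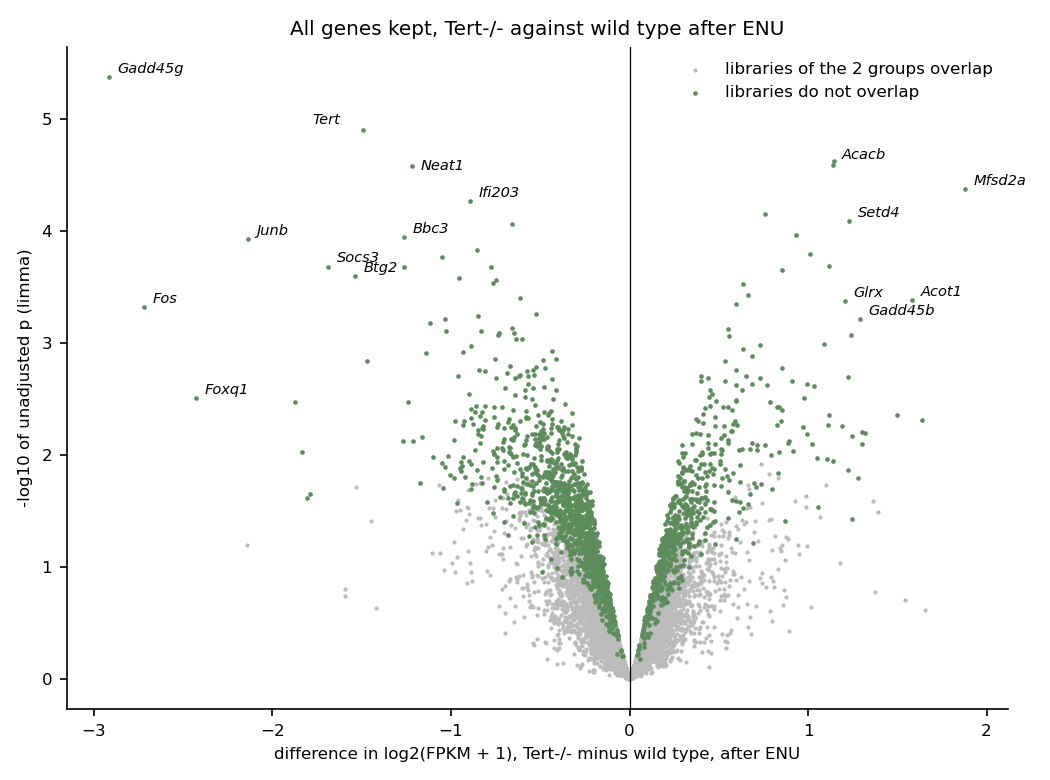
Difference in log2(FPKM + 1) between Tert-/- and wild-type liver after ENU (x axis) against -log10 of the unadjusted limma p (y axis) for the 11831 genes kept. Green points are genes whose 3 Tert-/- and 3 wild-type libraries do not overlap, and Gadd45g stands at the upper left as the 1 gene past the adjusted threshold.

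Gadd45g encodes a small stress protein that binds the MAP kinase kinase kinase MEKK4 and cell cycle kinases, and it lies on chromosome 13 at 51846678 to 51848468. Its level was 134, 120 and 229 FPKM in wild type and 17.0, 19.6 and 22.7 FPKM in Tert-/- after ENU. The lowest wild-type library stood far above the highest Tert-/- library. The means were 161 ± 59.4 (SD, n = 3) and 19.8 ± 2.85 FPKM (SD, n = 3), a log2 difference of -2.91 ± 0.24 (SE) with a limma adjusted p of 0.0494. The call was close to the threshold and did not hold in 9 of the 15 other settings tried, where its adjusted p lay between 0.0586 and 0.531 while the estimate stayed between -3.09 and -2.81. In saline the gene measured 83.5, 128 and 23.4 FPKM in wild type and 134, 116 and 26.0 FPKM in Tert-/-, and the genotypes overlapped. A test of the genotype by treatment difference gave -3.14 ± 0.91 (SE) for Gadd45g, with an unadjusted p of 0.00481 and a limma adjusted p of 0.66.

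The other immediate early genes mostly had lower estimates in Tert-/- as well. Of 30 listed genes 23 were kept, 19 had estimates below 0, and the median was -0.703 against -0.029 over all genes kept. In this list 14 genes were lower and 1 was higher at an unadjusted p under 0.05, 10 were lower and 1 higher without overlap of libraries (47.8%, against 16% of all genes kept), and 1, Gadd45g, passed the threshold. The median stayed between -0.759 and -0.475 whichever ENU library was left out. In saline the same genes had a median of -0.653, or -0.497 without Tert-/- replicate 2, and 7 were lower without overlap.

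The promoters of these genes were compared for short motifs, and no motif was shared by the 4 shown. The 300-base promoters below, from RefSeq on GRCm38.p6, are those of Gadd45g and of 3 immediate early genes whose libraries did not overlap. They run 5′ to 3′ on the gene's strand, and capitals mark matches on either strand to any of 6 motifs: the cAMP response element TGACGTCA, the E-box CACGTG, the STAT motif TTCNNNGAA, the AP-1 motif TGAGTCA, the TATA motif TATAAA and the CArG box, within which a TATA motif can lie.
Gadd45g, chr13:51846425-51846724, plus strand: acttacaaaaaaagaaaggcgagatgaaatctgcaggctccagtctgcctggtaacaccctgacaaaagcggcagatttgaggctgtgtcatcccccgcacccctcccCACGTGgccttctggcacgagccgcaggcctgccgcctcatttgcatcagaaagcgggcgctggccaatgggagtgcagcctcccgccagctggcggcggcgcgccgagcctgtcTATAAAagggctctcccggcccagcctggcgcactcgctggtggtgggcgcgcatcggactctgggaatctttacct
Fos, chr12:85473640-85473939, plus strand: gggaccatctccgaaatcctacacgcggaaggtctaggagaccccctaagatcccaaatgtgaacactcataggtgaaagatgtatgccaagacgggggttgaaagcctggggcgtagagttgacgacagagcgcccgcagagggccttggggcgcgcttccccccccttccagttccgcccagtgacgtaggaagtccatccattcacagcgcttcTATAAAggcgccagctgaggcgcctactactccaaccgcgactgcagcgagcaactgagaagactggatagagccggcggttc
Junb, chr8:84978699-84978998, minus strand: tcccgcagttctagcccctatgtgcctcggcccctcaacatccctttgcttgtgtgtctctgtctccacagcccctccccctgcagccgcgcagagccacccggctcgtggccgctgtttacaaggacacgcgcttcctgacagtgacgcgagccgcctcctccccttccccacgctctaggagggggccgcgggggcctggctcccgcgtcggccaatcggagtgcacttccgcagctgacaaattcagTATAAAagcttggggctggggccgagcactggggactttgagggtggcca
Btg2, chr1:134079106-134079405, minus strand: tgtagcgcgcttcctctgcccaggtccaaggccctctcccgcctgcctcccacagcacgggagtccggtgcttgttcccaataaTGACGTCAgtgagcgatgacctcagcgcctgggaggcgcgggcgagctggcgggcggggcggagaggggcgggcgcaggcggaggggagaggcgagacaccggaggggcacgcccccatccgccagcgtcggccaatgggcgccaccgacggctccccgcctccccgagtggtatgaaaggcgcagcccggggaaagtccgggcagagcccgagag
Gadd45g carried an E-box and a TATA motif, Fos and Junb a TATA motif, and Btg2 a cAMP response element. Promoters were found for 8552 of the genes kept and for 20 of the immediate early genes. Of all 27025 promoters, 7.24% held the E-box, 14.2% the TATA motif, 1.88% the cAMP response element, 8.47% the STAT motif, 5.17% the AP-1 motif and 1.57% the CArG box. The E-box occurred in 25% of the 20 immediate early promoters and in 10.5% of those of genes kept, the TATA motif in 20% and 7.16%, the cAMP response element in 10% and 3.26%, and the STAT motif in 10% and 6.79%. The CArG box was found in 1 of the 20 promoters and the AP-1 motif in 0. Among the genes whose Tert-/- libraries were all lower, 8.34% held the E-box and 6.72% the TATA motif, which is below the shares over all genes kept. Where the Tert-/- libraries were all higher, the shares were 13.4% and 7.41%, which is above them. A match is only a run of letters in this window. The motifs were chosen with the values of these genes known.

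Junb encodes an AP-1 subunit. It measured 195, 125 and 223 FPKM in wild type and 29.7, 35.2 and 57.3 FPKM in Tert-/- after ENU, without overlap, and its log2 difference was -2.14 ± 0.29 (SE) with a limma adjusted p of 0.106. Fos, its dimer partner, had wild-type levels of 39.1, 10.8 and 32.2 FPKM and Tert-/- levels of 2.08, 2.32 and 4.41 FPKM. The wild-type libraries of Fos spread widely, yet each was above every Tert-/- library, and the difference of -2.72 ± 0.45 (SE) had an adjusted p of 0.175 by limma. Socs3, the feedback inhibitor of cytokine receptors that signal through STAT3, measured 86.9, 69.1 and 99.1 FPKM in wild type and 18.2, 36.6 and 24.6 FPKM in Tert-/-. Its groups did not overlap after ENU (log2 difference -1.69 ± 0.25 SE, limma adjusted p 0.122) but overlapped in saline. Btg2, an antiproliferative gene that p53 also induces, was at 39.1, 42.0 and 58.9 FPKM against 10.8, 16.6 and 19.4 FPKM, again without overlap, with a limma adjusted p of 0.133.

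Fos above, and Zfp36, Klf2, Egr1 and Gadd45a here, were picked for description after their values were seen. Gadd45b was taken by the naming rule. Zfp36, which encodes an mRNA decay factor of AU-rich transcripts, had a log2 difference of -1.24 and an unadjusted p of 0.00338. Klf2, a transcription factor of endothelium and quiescent cells, differed by -1.14 (unadjusted p 0.00121), and Egr1, a zinc finger transcription factor, by -1.53 (unadjusted p 0.0193) with overlapping libraries. None of them passed the adjusted threshold with all 6 libraries. Klf2 passed it when wild-type ENU replicate 3 was left out, with a limma adjusted p of 0.0233. Klf2 and Zfp36 were also lower without overlap in saline, by -1.83 and -0.94. Not all early genes shared the direction. Gadd45b, the paralog of Gadd45g, was higher in Tert-/- without overlap, at 2.93, 5.14 and 4.99 FPKM against 1.6, 1.18 and 0.742 FPKM (log2 difference 1.29 ± 0.22 SE, limma adjusted p 0.20). Its saline estimate had the opposite sign, -1.34, or -1.65 without Tert-/- saline replicate 2, and the genotype by treatment difference of 2.63 ± 0.56 (SE) had an unadjusted p of 0.000529 and a limma adjusted p of 0.626. Gadd45a overlapped between the genotypes, at 5.98, 20 and 29.9 FPKM in wild type and 9.83, 10.7 and 25.6 FPKM in Tert-/-.

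**Figure D2:**
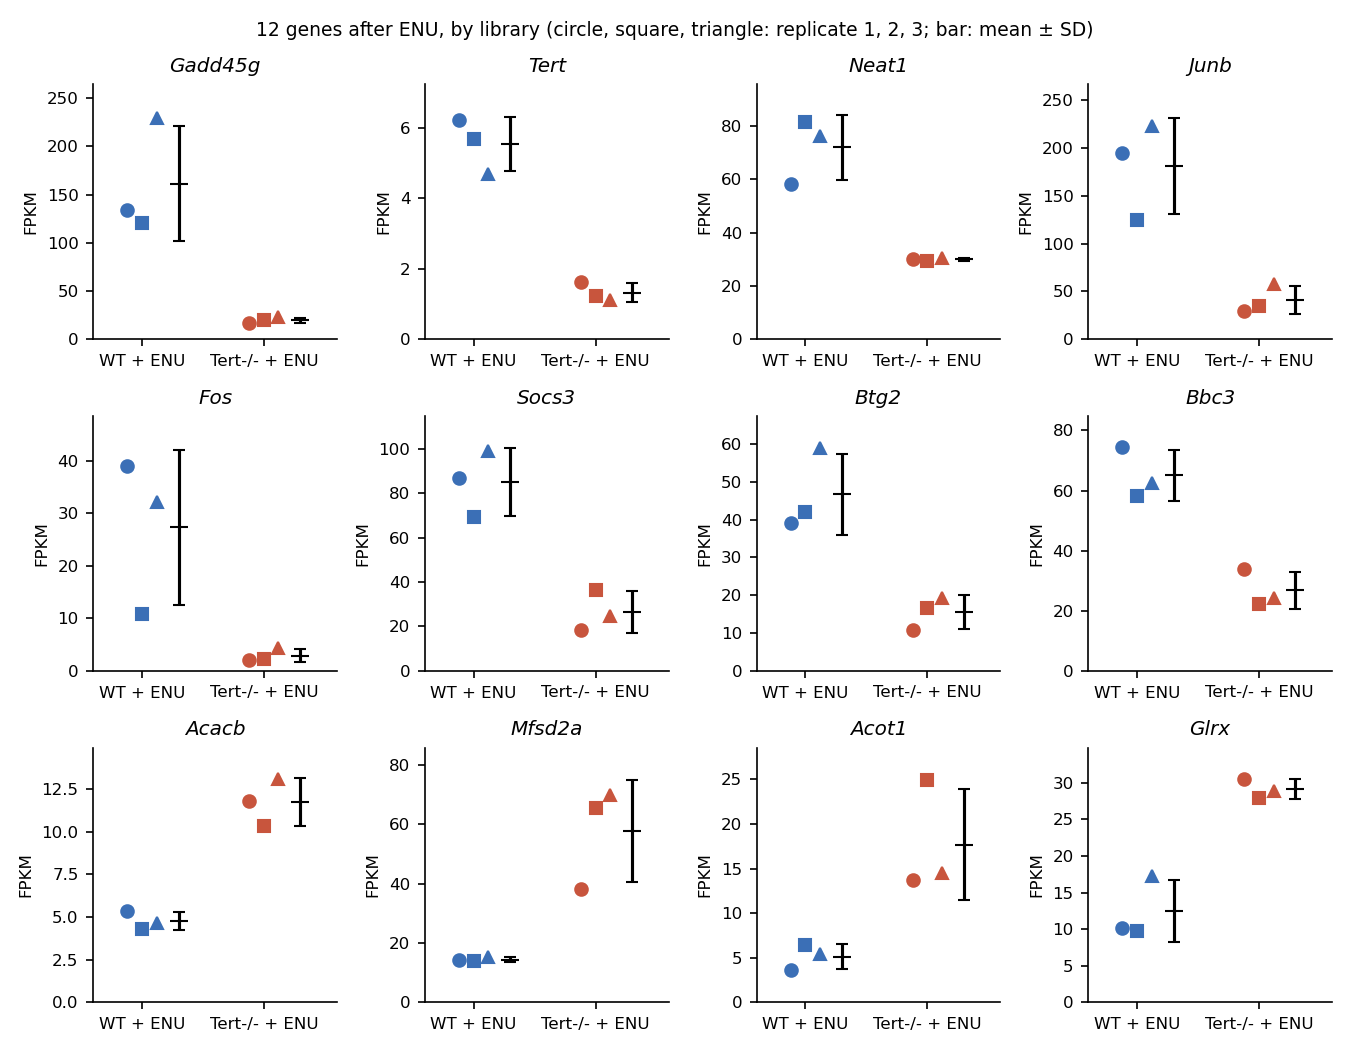
FPKM (y axis, linear from 0) of 12 genes in each ENU library, with wild type in blue and Tert-/- in red, symbols for replicates 1 to 3, and the mean ± SD as a black bar. In every panel the 3 libraries of 1 genotype lie above the 3 of the other, while of these genes Gadd45g alone passed the adjusted threshold.

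Several genes outside these lists came close to the threshold. Neat1, the long noncoding RNA that scaffolds nuclear paraspeckles (chromosome 19, 5824708 to 5845478), measured 58.3, 81.4 and 76.2 FPKM in wild type and 30.3, 29.5 and 30.5 FPKM in Tert-/- after ENU. The 3 Tert-/- libraries were nearly equal and lay below all wild-type libraries; the log2 difference was -1.22 ± 0.13 (SE) and the limma adjusted p 0.061. Median-ratio rescaling brought Neat1 to an adjusted p of 0.0492, limma-voom to 0.0298, and leaving out wild-type ENU replicate 1 to 0.00869. Shroom3, which binds actin and shapes epithelial cells, was at 12, 11.8 and 11.9 FPKM against 7.49, 6.82 and 7.19 FPKM and was lower in saline as well, without overlap in either treatment. Plxna2, a semaphorin receptor, showed the same pattern with a log2 difference of -1.26 after ENU and -1.46 in saline, or -1.13 without Tert-/- saline replicate 2. Also lower without overlap after ENU were Alg2, an enzyme of N-glycan assembly (-0.85), Creb3l2, a membrane-bound transcription factor (-1.05), and Wsb1, a ubiquitin ligase adaptor (-0.77), each with a limma adjusted p of 0.122.

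Acacb, which had the smallest p among curated genes with higher estimates, encodes the acetyl-CoA carboxylase of the mitochondrial surface, whose product malonyl-CoA limits fatty acid entry into mitochondria. Its wild-type libraries held 5.37, 4.29 and 4.66 FPKM and its Tert-/- libraries 11.8, 10.3 and 13.1 FPKM (log2 difference 1.14 ± 0.12 SE, limma adjusted p 0.061), with no overlap. Its adjusted p under limma-voom was 0.0298. In saline Acacb overlapped, with 22.7, 22.7 and 30.5 FPKM in wild type and 47.4, 13.4 and 21.4 FPKM in Tert-/-. Mfsd2a, a transporter of lysophospholipids that carry docosahexaenoic acid, measured 14.2, 13.9 and 15.3 FPKM in wild type and 38.1, 65.3 and 69.9 FPKM in Tert-/-. Its log2 difference was 1.88 ± 0.22 (SE) with a limma adjusted p of 0.0831, and 0.00523 without Tert-/- ENU replicate 1, whose value was the lowest of its group.

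Lgals4, a galectin, was at 20.9, 21.4 and 18.9 FPKM against 35.6, 37.6 and 32.4 FPKM, and also lay higher in saline without overlap. Setd4, a SET-domain methyltransferase, was at 5.83, 4.76 and 7.54 FPKM against 14.1, 14.9 and 17.1 FPKM. Prox1, a transcription factor of hepatocyte and lymphatic identity, was at 24.9, 29.2 and 28.5 FPKM against 40.1, 46.0 and 43.7 FPKM. The groups did not overlap for any of them after ENU, and their limma adjusted p-values were 0.102, 0.102 and 0.133. Setd4 passed the threshold without wild-type ENU replicate 3, with a limma adjusted p of 0.0233. The remaining genes that the naming rule took on this side were Ctcflos, a noncoding transcript (1.12), Omd, a small leucine-rich proteoglycan that passed the filter through its Tert-/- libraries alone, like 21 of the genes kept (0.85), Ap3m1, an adaptor subunit of endosomal sorting (0.60), and Slc30a1, a zinc exporter (0.55), in log2 differences. Strand use in counting is not given in the sources used here, so reads of a transcript such as Ctcflos and of genes it overlaps cannot be told apart. The protein-coding gene 1810055G02Rik, named here after its values were seen, was higher without overlap as well, at 37.0, 36.2 and 40.5 FPKM against 14.9, 15.4 and 19.7 FPKM, and was past the threshold under median-ratio rescaling and limma-voom.

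Because the strain is mixed, genes beside Tert were examined on their own. Within 5 Mb of Tert 32 genes were kept, of which 0 passed the threshold, 5 (15.6%) had an unadjusted p under 0.05, against 10.5% of all genes kept, and 12.5% did not overlap between genotypes, against 16%. Within 20 Mb 10.4% of 154 genes had an unadjusted p under 0.05. One neighbour stood out, chosen by the naming rule: Glrx, which encodes the thiol reductase glutaredoxin, lies 2.19 Mb from Tert at 75839868 to 75850151. It measured 10.2, 9.81 and 17.3 FPKM in wild type and 30.5, 27.9 and 28.9 FPKM in Tert-/- after ENU (log2 difference 1.21 ± 0.20 SE, limma adjusted p 0.166). In saline the values were 13.5, 14.8 and 25.8 FPKM against 52.5, 48.0 and 54.7 FPKM, a log2 difference of 1.52. Every Tert-/- library of both treatments lay above every wild-type library. Leaving out wild-type ENU replicate 3, the highest of its group, brought the ENU difference to an adjusted p of 0.0155. Whether the stretch around the knockout allele differs in strain origin was not tested. Clptm1l, which is next to Tert, was at 49.5, 48.8 and 50.1 FPKM against 56.1, 52.1 and 48.1 FPKM and overlapped.

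The other subunits of telomerase and of shelterin, the complex that caps telomeres, lay on both sides of 0. All 22 listed genes, Tert among them, were kept. Of these 22, 9 had estimates above and 13 below 0, 0 passed the threshold, and Tert was the 1 member with an unadjusted p under 0.05. Their median was -0.012, and it changed sign to 0.042 under quantile normalization and to 0.01 under median-ratio rescaling. Ten1, a subunit of the complex that finishes telomere replication, had the next smallest p, at 2.97, 2.19 and 1.94 FPKM in Tert-/- against 1.01, 1.36 and 2.04 FPKM. Nop10, a protein of the H/ACA particle that holds the telomerase RNA, overlapped at a log2 difference of 0.18, and Nhp2, another, was higher without overlap by 0.09.

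Genes that p53 is known to induce mostly had slightly lower estimates in Tert-/-. Of 58 listed p53 targets 50 were kept, 42 had estimates below 0, the median was -0.196, and 0 passed the threshold. At an unadjusted p under 0.05 there were 11 lower and 1 higher, and the same counts, 11 and 1, were found for genes without overlap, which is 24% of the list against 16% of all genes kept. The median was -0.294 without wild-type ENU replicate 2 and -0.108 without wild-type ENU replicate 3. Phlda3, an inhibitor of AKT, measured 78.7, 60.3 and 75.9 FPKM in wild type and 43.1, 56.2 and 48.7 FPKM in Tert-/- after ENU, against 0.875 to 1.84 FPKM over the 6 saline libraries. Both genotypes stood above saline, and within ENU the Tert-/- libraries were all below the wild-type libraries (log2 difference -0.53 ± 0.14 SE, limma adjusted p 0.355). Bbc3, which encodes the proapoptotic protein PUMA, had 74.4, 58.2 and 62.5 FPKM in wild type and 33.8, 22.3 and 24.3 FPKM in Tert-/-. It differed by -1.26 ± 0.17 (SE) with a limma adjusted p of 0.106, and it was also lower without overlap in saline, by -0.55. Psrc1, a spindle protein, was at 4.68, 2.93 and 6.32 FPKM against 1.85, 2.02 and 2.36 FPKM, from at most 0.144 FPKM in saline.

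Other textbook targets overlapped between the genotypes after ENU. These were chosen after their values were seen. Cdkn1a, which encodes the cell cycle inhibitor p21, measured 285, 135 and 224 FPKM in wild type and 112, 225 and 111 FPKM in Tert-/- after ENU. Mdm2, the ubiquitin ligase of p53, was at 60.6, 46.6 and 70.2 FPKM against 51.7, 72.3 and 38.4 FPKM. For both genes Tert-/- replicate 2 was as high as wild type. Ephx1, an epoxide hydrolase and the most abundant target on the list, differed by -0.08 ± 0.15 (SE). The list's median in saline was -0.241 with all libraries and -0.048 without Tert-/- replicate 2. Cdkn1a was lower in Tert-/- without overlap in saline, at 32.5, 4.70 and 17.0 FPKM in wild type and 1.18, 1.43 and 0.92 FPKM in Tert-/-. Its saline log2 difference was -2.80 (limma unadjusted p 0.00176, adjusted p 0.171). Its genotype by treatment difference was 2.27 (limma unadjusted p 0.0108, adjusted p 0.66).

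Repair genes lay near the overall median. Of the genes for alkylation damage and base excision repair 18 of 23 were kept, with a median of -0.084, 0 called and 0 at an unadjusted p under 0.05 in either direction. Mpg, the glycosylase for alkylated purines, had 4, 3.82 and 3.19 FPKM in wild type and 2.97, 2.92 and 2.68 FPKM in Tert-/-, without overlap but with an unadjusted p of 0.0506. For replication and mismatch repair 2 of 26 genes were higher at an unadjusted p under 0.05 and 0 lower. Rrm2, the small subunit of ribonucleotide reductase, was 1 of these, with overlapping libraries. Among 22 genes of double-strand break repair and checkpoints 2 were higher and 1 lower at that level, and the median was 0.022. Over all genes kept, 3.24% were higher and 7.24% lower at that level. Blm, the helicase of Bloom syndrome, measured 2.86, 1.67 and 3.32 FPKM in Tert-/- and 1.36, 1.07 and 1.06 FPKM in wild type, whereas H2afx, the histone variant of damage foci, was at 5.52, 4.77 and 5.08 against 5.75, 8.22 and 7.54 FPKM. The groups did not overlap for either gene, and the limma adjusted p-values were 0.359 and 0.401.

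**Figure D3:**
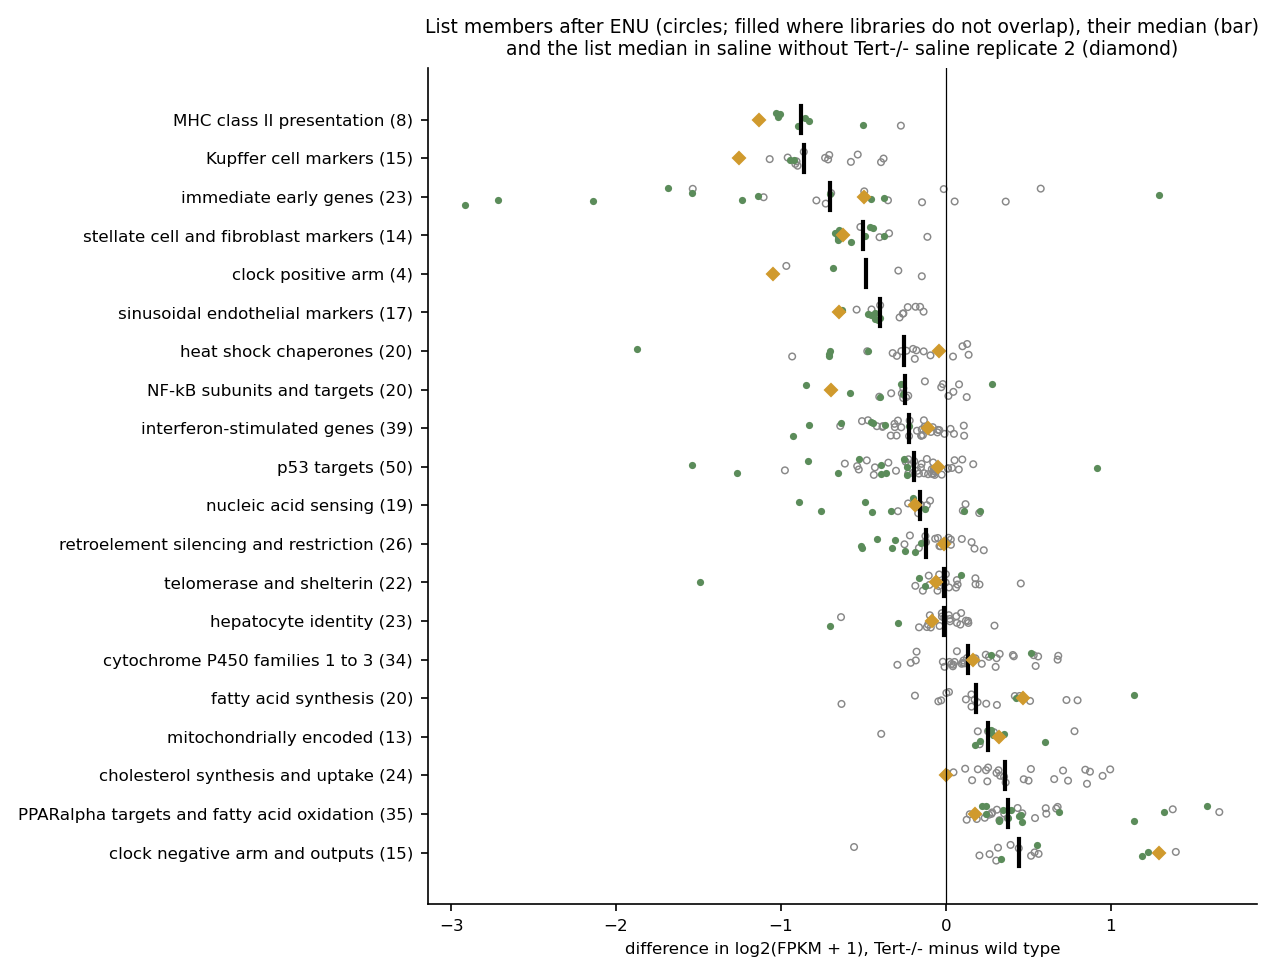
Differences in log2(FPKM + 1) after ENU (x axis) of the kept members of 20 gene lists (rows, number kept in brackets), each circle a gene, filled where the libraries do not overlap. Black bars are list medians after ENU and diamonds are list medians in saline without Tert-/- saline replicate 2; MHC class II, Kupffer cell and immediate early lists lie farthest to the left and clock outputs and PPARalpha targets farthest to the right.

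Markers of Kupffer, stellate and sinusoidal endothelial cells all had estimates below 0, while those of cholangiocytes, the bile duct cells, had a median of -0.072 over the 5 of 11 kept, with 0 at an unadjusted p under 0.05. In bulk tissue, fewer cells of a type and less RNA per cell cannot be told apart. Of 16 markers of Kupffer cells, the resident macrophages of liver, 15 were kept and all 15 had estimates below 0, with a median of -0.861. At an unadjusted p under 0.05 there were 9 lower, and 0 passed the threshold. Libraries did not overlap for 2 of the 15, both lower (13.3%, against 10.4% of all genes kept that were lower without overlap). The sum of the list was 723, 693 and 313 FPKM in wild type and 307, 375 and 282 FPKM in Tert-/- after ENU. Wild-type replicate 3 was thus within the range of the Tert-/- libraries. For Adgre1, which encodes F4/80, that replicate stayed just above them, at 7.40, 6.65 and 2.99 FPKM against 2.32, 2.79 and 1.86 FPKM. It lay within their range for Clec4f, a lectin specific to Kupffer cells, with 88.0, 91.2 and 41.7 FPKM against 37.0, 42.3 and 34.6 FPKM. Without wild-type ENU replicate 3, Clec4f, Cd5l, C1qa, C1qc, Csf1r, Vsig4 and, only just, Cd68 of this list passed the threshold. Their log2 differences lay between -1.51 and -1.18, and the count over all genes became 7 higher and 22 lower. In saline the list summed to 502 to 818 FPKM in wild type and 339 to 620 FPKM in Tert-/-, with a median of -1.03, or -1.25 without Tert-/- replicate 2.

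MHC class II genes, which present antigen on macrophages, dendritic cells and B cells, shared this direction. Of 12 genes 8 were kept, all 8 with estimates below 0 and a median of -0.876; 7 did not overlap (87.5%, against 16% of all genes kept), and 7 had an unadjusted p under 0.05, with 0 called. H2-Ab1 measured 20.7, 41.2 and 23.7 FPKM in wild type and 16.0, 8.88 and 15.2 FPKM in Tert-/- (log2 difference -1.02 ± 0.30 SE, limma adjusted p 0.364). Cd74, the invariant chain, was at 20.5, 32.5 and 18.3 FPKM against 14.1, 6.43 and 13.5 FPKM. H2-DMb1, a peptide exchange factor, was at 1.65, 3.06 and 1.73 FPKM against 0.661, 0.474 and 0.858 FPKM; it passed the filter through its wild-type libraries alone, which builds in its separation, as in 31 of the genes kept. Unlike the Kupffer markers, wild-type replicate 3 stayed above the Tert-/- libraries for these genes. In saline the median was -0.823, or -1.13 without Tert-/- replicate 2, and the median of the genotype by treatment differences was -0.036.

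Stellate cells store vitamin A and make matrix, and sinusoidal endothelium lines the liver's capillaries. Of the stellate cell and fibroblast markers 14 of 18 were kept, all with estimates below 0, a median of -0.504 and 10 without overlap (71.4%, against 16% of all genes kept); 11 had an unadjusted p under 0.05 and 0 were called. Col3a1, a fibrillar collagen, had 9.24, 14.0 and 12.5 FPKM in wild type and 7.96, 7.03 and 6.39 FPKM in Tert-/-, and Dcn, a matrix proteoglycan, had 41.0, 59.4 and 40.3 FPKM against 35.5, 33.5 and 37.1 FPKM. All 17 sinusoidal endothelial markers were kept, again all below 0, with a median of -0.401, or -0.245 without wild-type ENU replicate 2, 7 without overlap (41.2%), 9 at an unadjusted p under 0.05 and 0 called. Pecam1, an adhesion molecule of endothelium, was at 5.91, 6.42 and 4.83 FPKM against 3.94, 4.27 and 3.67 FPKM. The endothelial list summed to 156 to 231 FPKM in wild type and 139 to 153 FPKM in Tert-/-, and the stellate list to 197 to 308 FPKM against 132 to 167 FPKM. Saline medians were -0.686 for the endothelial and -0.608 for the stellate list, and -0.65 and -0.626 without Tert-/- replicate 2.

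Markers of circulating leukocytes were scarce. Monocyte and neutrophil markers summed to 29.7 to 83.5 FPKM in wild type and 26.7 to 28.4 FPKM in Tert-/- after ENU, and all 5 of 16 that were kept had estimates below 0. Csf3r, the receptor of granulocyte colony-stimulating factor, was at 2.05, 2.81 and 1.13 FPKM against 0.644, 0.469 and 0.658 FPKM, having also passed the filter through wild type alone, and Lyz2, a lysozyme of myeloid cells, overlapped. None of 18 T and NK cell markers was kept. Of them 17 stayed under 1 FPKM in all 6 libraries, among them Cd8b1, which was at 0 in each. B cell markers summed to 4.19 to 34.3 FPKM in wild type and 6.07 to 32.6 FPKM in Tert-/-, and 2 of 12 were kept. Hepatocyte identity genes, in contrast, had a median of -0.01, with 11 of 23 above and 12 below 0 and 0 called. Ahsg, which encodes fetuin-A, and Foxa2, a pioneer transcription factor of liver, were the 2 without overlap. Both were lower (8.7%, against 10.4% of all genes kept that were lower without overlap). Foxa2 was at 45.6, 94.0 and 75.2 FPKM against 43.3, 41.0 and 41.3 FPKM. The part that cell composition has in the other differences given here was not tested.

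**Figure D4:**
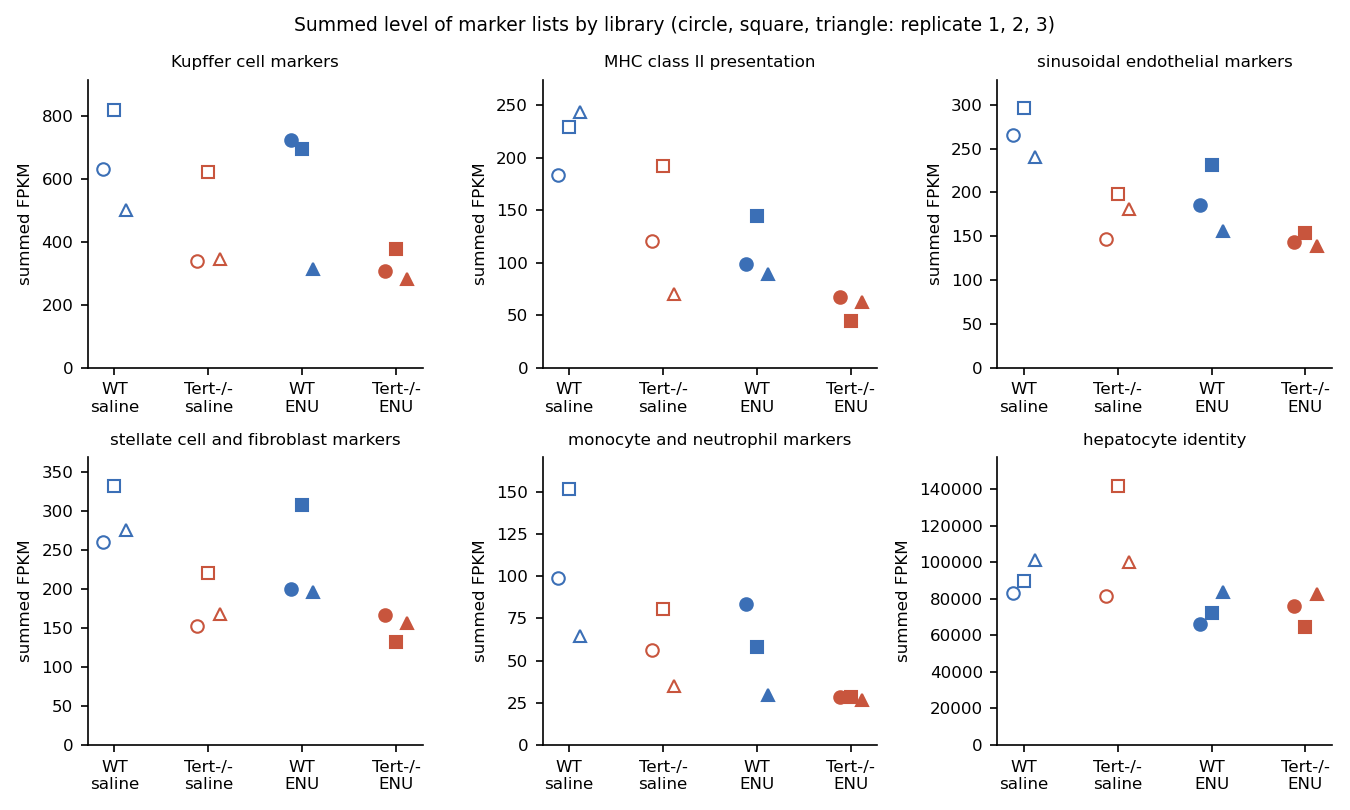
Summed FPKM (y axes, linear from 0) of 6 marker lists in each of the 12 libraries, open symbols for saline and filled for ENU, blue for wild type and red for Tert-/-, symbols for replicates 1 to 3. Kupffer markers of wild-type ENU replicate 3 lie beside the Tert-/- ENU libraries, while MHC class II sums of all wild-type ENU libraries lie above them.

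Interferon-stimulated genes, which encode antiviral effectors, had mostly lower estimates of modest size. Of 42 genes 39 were kept, 35 of them below 0, with a median of -0.223, and 0 were called. At an unadjusted p under 0.05 there were 10 lower and 0 higher, against 7.24% and 3.24% of all genes kept. Libraries did not overlap for 7, all lower (17.9%, against 10.4% of all genes kept that were lower without overlap). Oasl2, an oligoadenylate synthetase-like protein, measured 7.22, 6.88 and 4.21 FPKM in wild type and 3.02, 1.79 and 3.37 FPKM in Tert-/- (log2 difference -0.93 ± 0.23 SE, limma adjusted p 0.355). Mx2, a dynamin-like GTPase, was at 6.24, 6.00 and 5.54 FPKM against 4.61, 3.37 and 4.38 FPKM. Oas2 was at 5.89, 4.09 and 2.22 FPKM against 1.70, 1.47 and 2.01 FPKM. Ifitm3 and Bst2, the abundant members, overlapped. The list's median was -0.064 to -0.366 when 1 library was left out, the smaller without Tert-/- replicate 2, and -0.215 in saline, or -0.11 without Tert-/- saline replicate 2.

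Nucleic acid sensors showed 14 of 19 kept genes below 0 and a median of -0.155, or -0.066 without wild-type ENU replicate 1. At an unadjusted p under 0.05 there were 6 lower and 0 higher, against 7.24% and 3.24% of all genes kept. Libraries did not overlap for 7 lower and 2 higher genes (47.4%, against 16% of all genes kept). Ifi203, a DNA-binding protein of the interferon-inducible p200 family, was the closest to the threshold, at 4.55, 4.34 and 4.37 FPKM against 1.89, 1.78 and 2.10 FPKM (log2 difference -0.89 ± 0.11 SE, limma adjusted p 0.0909). Its libraries were tight within each genotype and far apart between them. Near-identical genes of this family lie side by side, so reads may be split between them. Ticam1, the adaptor of TLR3 and TLR4, and Unc93b1, the chaperone of endosomal Toll-like receptors, were lower without overlap at -0.49 and -0.45. Of the genes for silencing and restriction of retroelements 26 of 32 were kept, 19 of them below 0, with a median of -0.122. At an unadjusted p under 0.05 there were 5 lower and 0 higher, against 7.24% and 3.24% of all genes kept. Libraries did not overlap for 8, all lower (30.8%, against 10.4% of all genes kept that were lower without overlap). Samhd1, which depletes deoxynucleotides, and Apobec3, a cytidine deaminase, were lower without overlap in both treatments, by -0.51 and -0.42 after ENU. Trim28, the corepressor of KRAB zinc finger proteins, was at 71.9, 85.9 and 94.3 FPKM against 79.5, 59.5 and 77.9 FPKM. Endogenous retroviral families themselves have no rows in the gene table and were not analysed here.

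Among 20 kept genes of NF-kB signalling 5 were lower and 1 higher at an unadjusted p under 0.05, against 7.24% and 3.24% of all genes kept. The same counts, 5 and 1, were found for genes without overlap (30%, against 16% of all genes kept). The list median was -0.249, which moved to -0.078 without wild-type ENU replicate 1. Il1b, the inflammasome cytokine, had 3.99, 5.51 and 2.69 FPKM in wild type and 2.09, 1.90 and 1.28 FPKM in Tert-/-. Tnfaip3, the NF-kB inhibitor A20, was at 2.91, 1.53 and 2.23 FPKM against 1.27, 0.911 and 1.20 FPKM. Neither gene overlapped between genotypes. Of 11 kept chemokines Cxcl1, which draws neutrophils, was the 1 lower without overlap (9.09%, against 10.4% of all genes kept). It was at 109, 28.7 and 76.0 FPKM against 8.98, 23.8 and 21.4 FPKM. Vsir, the checkpoint receptor VISTA, was lower without overlap in both treatments, by -0.74 and -0.71. Acute phase proteins did not separate the genotypes: Hp, haptoglobin, was highest in wild-type replicate 1 and Tert-/- replicate 2, 0 of 25 genes had an unadjusted p under 0.05, and the list median ran from -0.537 to 0.318 as single libraries were left out.

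Among stress chaperones 0 genes were called. Of 20 heat shock genes 16 had estimates below 0, 6 were lower and 0 higher at an unadjusted p under 0.05, 5 (25%, against 16% of all genes kept) did not overlap, and the median was -0.255, or -0.045 without wild-type ENU replicate 3. Hspa1b, the inducible HSP70, had 22.3, 29.6 and 66.4 FPKM in wild type and 8.87, 14.3 and 5.48 FPKM in Tert-/-, and shares reads with its near-identical copy Hspa1a. Hspa8, the constitutive family member, was at 1068, 1227 and 1582 FPKM against 666, 967 and 733 FPKM. Both groups were without overlap, and the limma adjusted p-values were 0.347 and 0.359. In the endoplasmic reticulum and integrated stress list, Chac1, a glutathione-degrading enzyme, was at 2.32, 6.22 and 5.79 FPKM against 0.812, 0.879 and 1.25 FPKM. Chac1 passed the threshold without wild-type ENU replicate 1, with a limma adjusted p of 0.0244. Ddit3, which encodes CHOP, was at 11.9, 14.4 and 13.3 FPKM against 9.93, 7.84 and 8.01 FPKM. Dnajc3, an inhibitor of PERK, had the other direction, at 42.0, 50.2 and 56.4 against 61.5, 61.2 and 61.7 FPKM. Gclc, the catalytic subunit of glutathione synthesis, was at 381, 411 and 309 FPKM against 256, 274 and 244 FPKM, and lower in saline as well, without overlap in either.

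Genes of fatty acid oxidation had higher estimates throughout their list. PPARalpha is the fatty acid receptor that induces import and oxidation of fatty acids in fasting liver. Of 36 listed targets 35 were kept and all 35 had estimates above 0, with a median of 0.377 after ENU against 0.008 in saline, or 0.176 in saline without Tert-/- replicate 2. At an unadjusted p under 0.05 there were 14 higher and 0 lower, 15 were higher without overlap (42.9%, against 5.63% of all genes kept), and 0 passed the threshold. The median stayed between 0.307 and 0.491 as libraries were left out, and was 0.345 with the clock ratio described below as a covariate. For 5 of the 35 genes the genotype by treatment difference had an unadjusted p under 0.05, and for 0 of them an adjusted p under 0.05 by limma.

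Acot1, an acyl-CoA thioesterase of the cytosol, measured 3.59, 6.39 and 5.46 FPKM in wild type and 13.7, 24.9 and 14.5 FPKM in Tert-/- after ENU, against 2.52 to 6.02 FPKM in saline. The 3 Tert-/- ENU libraries of Acot1 stood above the other 9 libraries, with a log2 difference after ENU of 1.58 ± 0.26 (SE) and a limma adjusted p of 0.166, and a genotype by treatment difference of 1.72 ± 0.43 (SE) with an unadjusted p of 0.00182 and an adjusted p of 0.66. Acot4, a paralog in the same cluster, was at 7.66, 9.36 and 9.75 FPKM against 12.2, 17.5 and 15.4 FPKM. Reads may be shared between such paralogs. Angptl4, the secreted inhibitor of lipoprotein lipase, had 53.8, 18.8 and 46.7 FPKM in wild type and 91.3, 89.8 and 95.1 FPKM in Tert-/-. Its groups did not overlap, and its limma adjusted p was 0.355. The receptor gene Ppara itself, named after its value was seen, was at 80.9, 107 and 105 FPKM against 141, 121 and 139 FPKM. Fabp1, the abundant fatty acid carrier, overlapped.

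Genes of cholesterol synthesis and uptake had estimates above 0 in 24 of 24, with a median of 0.358, but 0 of them were without overlap, 1 had an unadjusted p under 0.05 and 0 were called. Wild-type replicate 3 was low and Tert-/- replicate 3 high in this list: Idi1, an isomerase of the mevalonate pathway, had 46.6, 90.0 and 27.0 FPKM in wild type and 79.0, 73.0 and 162 FPKM in Tert-/-. The list median was 0.166 without wild-type replicate 3, 0.17 without Tert-/- replicate 3 and 0.66 without wild-type replicate 2, and in saline it was -0.204, or 0.002 without Tert-/- saline replicate 2. Fatty acid synthesis genes were above 0 in 16 of 20 with a median of 0.183. Acacb and Tmem97 were the 2 without overlap, both higher (10%, against 5.63% of all genes kept that were higher without overlap). Srebf1, the transcription factor that drives the pathway, went the other way, at 316, 314 and 572 FPKM against 345, 144 and 305 FPKM, with overlap. Of the 13 mitochondrially encoded genes 12 had estimates above 0, 7 were higher without overlap (53.8%, against 5.63% of all genes kept), 4 had an unadjusted p under 0.05, and the list summed to 24430 to 26210 FPKM in wild type and 28680 to 30780 FPKM in Tert-/-. mt-Nd6, a complex I subunit, was at 695, 714 and 679 FPKM against 856, 893 and 915 FPKM.

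Clock genes varied strongly among wild-type libraries. The log2 ratio of Dbp, a clock output that peaks by day in mouse liver, to Arntl, the BMAL1 gene that peaks by night, was -0.585, 4.51 and 4.70 in wild type and 4.69, 3.43 and 6.29 in Tert-/- after ENU. Wild-type replicate 1 stood apart from the other 5 libraries. In saline the ratio was -2.73, 0.152 and -2.26 in wild type and 6.46, 8.29 and 7.09 in Tert-/-, with no overlap. Of 15 genes of the clock's negative arm and outputs 14 had estimates above 0 after ENU, with a median of 0.442 and 0 called. Of these genes 4 were higher without overlap (26.7%, against 5.63% of all genes kept). At an unadjusted p under 0.05 there were 5 of the 15, all higher, against 3.24% of all genes kept. The list median was 0.044 without wild-type ENU replicate 1. Noct, a rhythmic NADPH phosphatase, was at 40.7, 22 and 42.6 FPKM in Tert-/- against 13, 10.6 and 20.7 FPKM, and Ciart, a repressor of CLOCK and BMAL1, at 10.8, 19.7 and 17.5 FPKM against 3.06, 6.68 and 10.4 FPKM. Arntl itself overlapped after ENU, at 10.1, 3.32 and 2.14 FPKM against 1.77, 2.94 and 0.843 FPKM. Hour of collection is not given in the labels, and its part in these differences was not tested. With the Dbp to Arntl ratio as a covariate the immediate early median was -0.823 and Gadd45g differed by -3.04 with a limma adjusted p of 0.0606.

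Wild-type replicate 1 also stood apart from replicates 2 and 3 in a few strongly varying genes, which are named after their values were seen. Foxq1, a forkhead transcription factor, measured 12.9, 63.5 and 64.0 FPKM in wild type and 6.23, 7.14 and 5.36 FPKM in Tert-/-. Cish, a feedback inhibitor of STAT5, was at 3.11, 23.3 and 22.5 FPKM against 2.50, 2.95 and 3.00 FPKM, and Phlda1 at 27.7, 150 and 170 FPKM against 23.3, 25.8 and 26.4 FPKM. In these genes replicate 1 lay near the Tert-/- libraries although still above them. With all 6 ENU libraries the limma adjusted p-values of Foxq1, Cish and Phlda1 were 0.3425, 0.4165 and 0.4085. Leaving replicate 1 out brought all 3 to a limma adjusted p of 0.000951, and the count over all genes to 1 higher and 8 lower. These 3 genes were picked because replicate 1 differed, so leaving it out narrows their spread by the way they were chosen. Myc, the growth-promoting transcription factor, had the same shape at 2.24, 29.0 and 63.3 FPKM in wild type, with replicate 1 just below the 2.33 to 4.81 FPKM of the Tert-/- libraries.

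Growth hormone signalling genes included further STAT5 targets. Socs2, a feedback inhibitor of the growth hormone receptor, had 9.24, 22.3 and 20.5 FPKM in wild type and 4.72, 5.28 and 9.16 FPKM in Tert-/-, and Bcl6, a repressor that opposes STAT5, had 4.91, 8.66 and 8.58 FPKM against 16.4, 16.6 and 10.4 FPKM. The groups did not overlap for either, and both limma adjusted p-values were 0.359. Igfbp4 and Ghr overlapped. Of 34 cytochrome P450 and regulator genes 28 lay above 0, and the list median was 0.136; Nr1i2, the xenobiotic receptor PXR, was at 48.3, 56.4 and 50.8 FPKM in Tert-/- against 34.7, 30.6 and 43.6 FPKM and was higher in saline as well. In the Wnt list Lgr5, a receptor of pericentral hepatocytes, had 4.20, 4.79 and 4.60 FPKM in wild type and 1.95, 2.34 and 2.51 FPKM in Tert-/- (log2 difference -0.76 ± 0.12 SE, limma adjusted p 0.133). Axin2 and Tbx3, targets of the same pathway, had estimates of the other sign with overlapping libraries. Tbx3 passed the threshold without wild-type ENU replicate 1, with a limma adjusted p of 0.0244. Hamp, the iron hormone hepcidin, was higher without overlap after ENU, by 0.35, and lower without overlap in saline, by -0.35, and the difference between the treatments had an unadjusted p of 0.0128 and a limma adjusted p of 0.66.

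The genotype difference after ENU was set beside that in saline, which shares no library with it. In saline 1 gene fell and 0 rose at the adjusted threshold (0.00845% called): Arntl, with a log2 difference of -2.68 and a limma adjusted p of 0.0416. At an unadjusted p under 0.05 there were 339 higher (2.87%) and 1254 lower (10.6%), together 13.5%, and 25.8% of genes did not overlap, 6.56% being higher and 19.2% lower. Without Tert-/- saline replicate 2 the saline counts were 245 higher and 563 lower at the adjusted threshold. The 2 sets of differences correlated across genes (genes are no independent replicates) with Spearman's rho 0.35, or 0.431 without that library. The libraries were apart in the same direction in both treatments in 66 genes higher and 559 lower in Tert-/-, and apart in opposite directions in 65 genes. The test of the difference between treatments called 0 of 11831 genes by limma (0%), with a smallest adjusted p of 0.199, and 812 (6.86%) at an unadjusted p under 0.05, of which 4.88% of all genes had a positive and 1.99% a negative difference, so no gene was shown to differ between the treatments in its genotype effect.

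**Figure D5:**
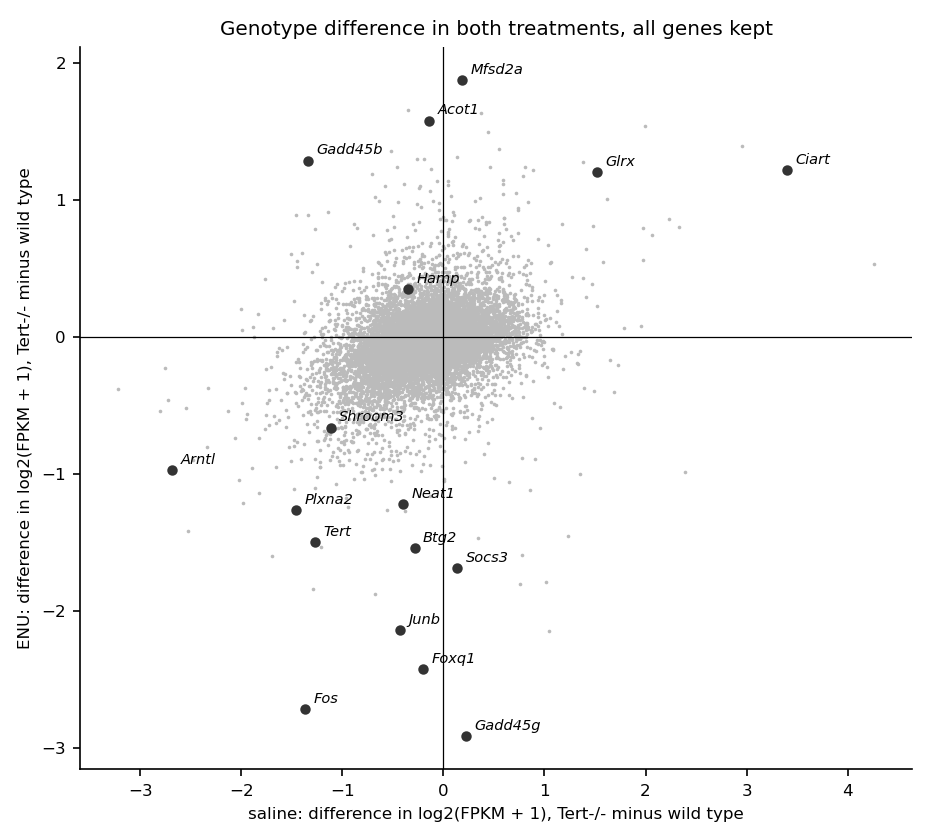
Difference in log2(FPKM + 1) between Tert-/- and wild type in saline (x axis) and after ENU (y axis), each point 1 of the 11831 genes kept. Tert and Plxna2 are below 0 and Glrx and Ciart above 0 on both axes, whereas Gadd45g, Socs3, Mfsd2a and Acot1 lie near 0 in saline.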

How the data were processed

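RNA-seq of mouse liver was deposited by the authors as 1 table of FPKM values per gene for 12 libraries. Per the labels' protocols, 3 µg of total RNA extracted with TRIzol went into NEBNext Ultra libraries. The submitters' processing notes name HISAT2, HTSeq and the mm10 build; versions, annotation, strand setting and treatment of multiply mapped reads are not given in the sources. Samples were grouped by the labels. The filter kept genes that reached 1 FPKM in 3 or more of the 6 ENU libraries. Their log2(FPKM + 1) values were then modelled in limma 3.58.1 under R 4.3.3 (trend, moderated, two-sided, Benjamini-Hochberg adjustment, threshold 0.05), with the 6 libraries of each treatment fitted alone and all 12 for the genotype by treatment difference. The scale understates changes of low genes. Library totals were recovered from the FPKM values: with transcript lengths from GENCODE M21, 26523 of the 26524 expressed genes gave whole reads within 0.01. Voom was run on these reads as an alternative. Other tables were handled with Python 3.11.15 and pandas 2.3.3. The fitting code was tested on simulated data.

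Alternatives were a pseudocount of 0.1, no filter, quantile normalization, median-ratio rescaling, a replicate block, voom, the Dbp to Arntl ratio as a covariate, joint fits over 12 or 11 libraries, and each library left out in turn. Genes were named by rule: Tert, up to 12 genes in each direction that passed the threshold without overlap, places filled by smallest unadjusted p with a curated symbol, and in each list up to 4 members of smallest p and the 2 most abundant. The comparison, its members and the lists were chosen with earlier results of these data known. Promoters came from RefSeq, 250 bases before to 50 after each start.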

Additional observations from a re-analysis of the deposited data

How the results depend on the processing

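The count of genes past the threshold after ENU was small under every setting and depended on it. It was 0 higher and 0 lower with no filter, with quantile normalization, with the clock covariate and in the joint fits over 12 or 11 libraries. Median-ratio rescaling gave 1 higher and 3 lower, and limma-voom on recovered reads 2 higher and 3 lower. Leaving out 1 library gave 0 to 7 higher and 0 to 22 lower, with the highest counts without wild-type ENU replicate 3 and 1 higher and 8 lower without wild-type ENU replicate 1; the cause was not tested. Tert differed by -1.47 under median-ratio rescaling, by -2.03 under voom and by -1.59 to -1.42 as single libraries were left out, and passed the threshold in the first 2 and without wild-type ENU replicate 3.

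In saline the count was 6 higher and 7 lower with quantile normalization, 91 higher and 493 lower in the joint fit over 12 libraries, and 591 higher and 992 lower over 11 libraries without Tert-/- saline replicate 2. With a pseudocount of 0.1, no filter, the replicate block or the clock covariate, 0 were lower. Leaving out 1 saline library gave 0 to 245 higher and 0 to 563 lower, the highest without Tert-/- saline replicate 2. The genotype by treatment difference called 0 genes in every setting run.

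The replicate numbers did not pair the ENU libraries: same-numbered wild-type and Tert-/- libraries had correlations of deviations of -0.137, 0.035 and 0.219, and wild-type replicate 1 correlated best with Tert-/- replicate 2, at 0.248. With the replicate block 0 genes were higher and 1 lower after ENU, Gadd45g had a limma adjusted p of 0.0229 and Tert one of 0.0699. Among single named genes 14 values became past the threshold, in 12 genes, 9 lost it, all in Gadd45g, and no called value changed sign; 90 values in 38 genes changed sign with neither value called. In 11 lists 17 medians moved by more than the spread between libraries. With 3 libraries a genotype, differences near the median SE of 0.129 were not detectable.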
